A study of Mus musculus with 12 samples.

Results

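Nonmuscle myosin II and the enzymes that switch it on and off were followed in mesenchymal stem cells from mouse bone marrow (BMSCs) given 2 drugs that act on actin. The set holds 10 genes of the 23358 rows in the count table, chosen by what their products do, with earlier results of these data known. The 8 described here are the heavy chains Myh9 and Myh10, the light chains Myl6, Myl12a and Myl12b, the myosin light chain kinase Mylk, and the myosin phosphatase subunits Ppp1r12a and Ppp1cb. All 8 passed the filter on low counts and were among the 13534 genes tested.

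Nonmuscle myosin II is a motor built from a pair of heavy chains, a pair of essential light chains and a pair of regulatory light chains, and it assembles into short filaments that pull actin filaments past each other. Phosphorylation of the regulatory light chain by myosin light chain kinase turns the motor on, and myosin phosphatase turns it off. In mesenchymal stem cells this machinery drives stress fibres and cell tension, which are known to bear on whether the cells become bone-forming or fat-storing cells.

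Gene expression was measured by RNA sequencing in 12 libraries of BMSCs, stromal cells kept in medium with serum. Ctrl was cells labelled as given no drug, CytoD was cells given cytochalasin D, which caps actin filaments and stops them growing, and CK (CK666 below) was cells given CK666, which blocks Arp2/3, the protein complex that nucleates branched actin. CytoD+CK (both drugs, or the combination, below) was cells given both, and each of the 4 groups had 3 libraries. Treatment lasted 24 h and began 1 day after plating. The sources used here do not give the mouse strain, sex and age, the drug concentrations or any vehicle in Ctrl, and no label says whether replicates came from separate animals or cultures. The p-values thus rest only on how far these libraries spread, and that spread could be technical. A lower level in such bulk libraries can mean less RNA per cell or fewer cells of a type, and these cannot be told apart.

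Each library held 48930210 to 69269716 gene counts, so that 3 counts, the limit below which no level was read, came to at most 0.0634 CPM (counts scaled to the size of the library). CK666 replicate 3 stood apart: its median absolute log2 difference from the other CK666 libraries was 0.289 and 0.276, against 0.126 between those 2, so values without it are given beside the described calls that change when it is left out. Of 12 stromal markers, Pdgfra, Pdgfrb, Cd44, Cxcl12, Vcam1, Col1a1, Prrx1 and Ly6a were well above the floor. The others were low, with at most 0.0788 CPM for Thy1, 0.813 for Nt5e, 1.27 for Lepr and 2.59 for Eng. The stromal markers summed to 14900 to 18200 CPM in Ctrl, 22880 to 25460 in CytoD, 9032 to 10540 in CK666 and 8683 to 9031 with both drugs, and Ly6a averaged 69.1, 23.4, 13.2 and 8.51 CPM in that order. Cxcl12 and Col1a1 made up most of these sums. From Ctrl to CytoD the mean of Cxcl12 went from 8331 to 18050 CPM and that of Col1a1 from 5674 to 3312. Of the 11 stromal markers tested, 4 rose and 3 fell with CytoD. With CK666 and with both drugs, 1 rose and 6 fell (0 and 6 with CK666 when its replicate 3 was left out). Of all genes tested, 19.1% rose and 18.9% fell with CytoD, 22.5% and 18.7% with CK666, and 24.4% and 21.6% with both. Macrophage markers summed to at most 13.0 CPM with Ptprc, Emr1 and Fcgr1 at 0 in every library, and the summed skeletal and cardiac muscle markers stayed at or below 0.263 CPM. Smooth muscle markers (Acta2, Tagln, Cnn1, Smtn, Des and Lmod1) summed to 3469 to 3609 CPM in Ctrl, 678 to 710 in CytoD, 757 to 1076 in CK666 and 465 to 575 with both drugs. Most of that sum was Acta2, with a mean of 3042 CPM in Ctrl. With CytoD 5 of these 6 fell and 1 rose, Des, whose means were 62.4 CPM in Ctrl, 83.9 in CytoD, 56.6 in CK666 and 52.9 with both. With CK666 and with both drugs, 5 of the 6 fell and 0 rose (6 fell in each without CK666 replicate 3). Adipocyte markers summed to 81.5 to 91.8 CPM in Ctrl, 414 to 433 in CytoD, 1202 to 2121 in CK666 and 2010 to 2896 with both drugs, while Lep, which marks mature fat cells, reached at most 0.0671 CPM. These marker levels differed between the groups, not all in the same direction, and their part in the results below was not tested.

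In length-scaled units Myl6 stood highest of the members in untreated cells, with Myl12a somewhat above Myh9 and Myl12b below it. The deposited RPKM (reads per kilobase of transcript, scaled to library size) averaged 1277 ± 124 for Myl6, 389.9 ± 27.7 for Myl12a, 331 ± 0.501 for Myh9, 94.1 ± 2.39 for Ppp1cb and 83.0 ± 5.37 for Myl12b (SD, n = 3 Ctrl libraries). The others averaged 61.7 ± 3.78 for Mylk, 34.8 ± 1.26 for Myh10 and 29.2 ± 2.66 for Ppp1r12a. Myl6 ranked 22 of the 13534 genes tested, Myl12a 118 and Myh9 155, while Ppp1r12a ranked 2215.

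With cytochalasin D the heavy chains and the essential light chain Myl6 were lower than in Ctrl. By the quasi-likelihood test of edgeR, with p-values adjusted after Benjamini and Hochberg across all genes tested and a threshold of 0.05, 4 of the 8 described members changed against Ctrl, with Myh9, Myh10 and Myl6 lower and Ppp1cb higher. Of all genes tested, 37.9% were called in that comparison. With CK666, 6 of 8 were lower than in Ctrl, namely both heavy chains, Myl6, Myl12a, Mylk and Ppp1r12a, where 41.1% of all genes were called. With both drugs, 7 of 8 changed against Ctrl, with 6 lower (both heavy chains, all 3 light chains and Mylk) and Ppp1cb higher, where 46.0% of all genes were called. The members' median log2 change was -0.14 with CytoD, -0.72 with CK666 and -0.81 with both, beside medians of 0.02, 0.03 and 0.04 over all genes tested. Without CK666 replicate 3 the counts were 5, 8 and 8 of 8, in a fit that called 50.4%, 42.4% and 56.3% of the genes it tested. The 3 comparisons share the Ctrl libraries.

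**Figure D1:**
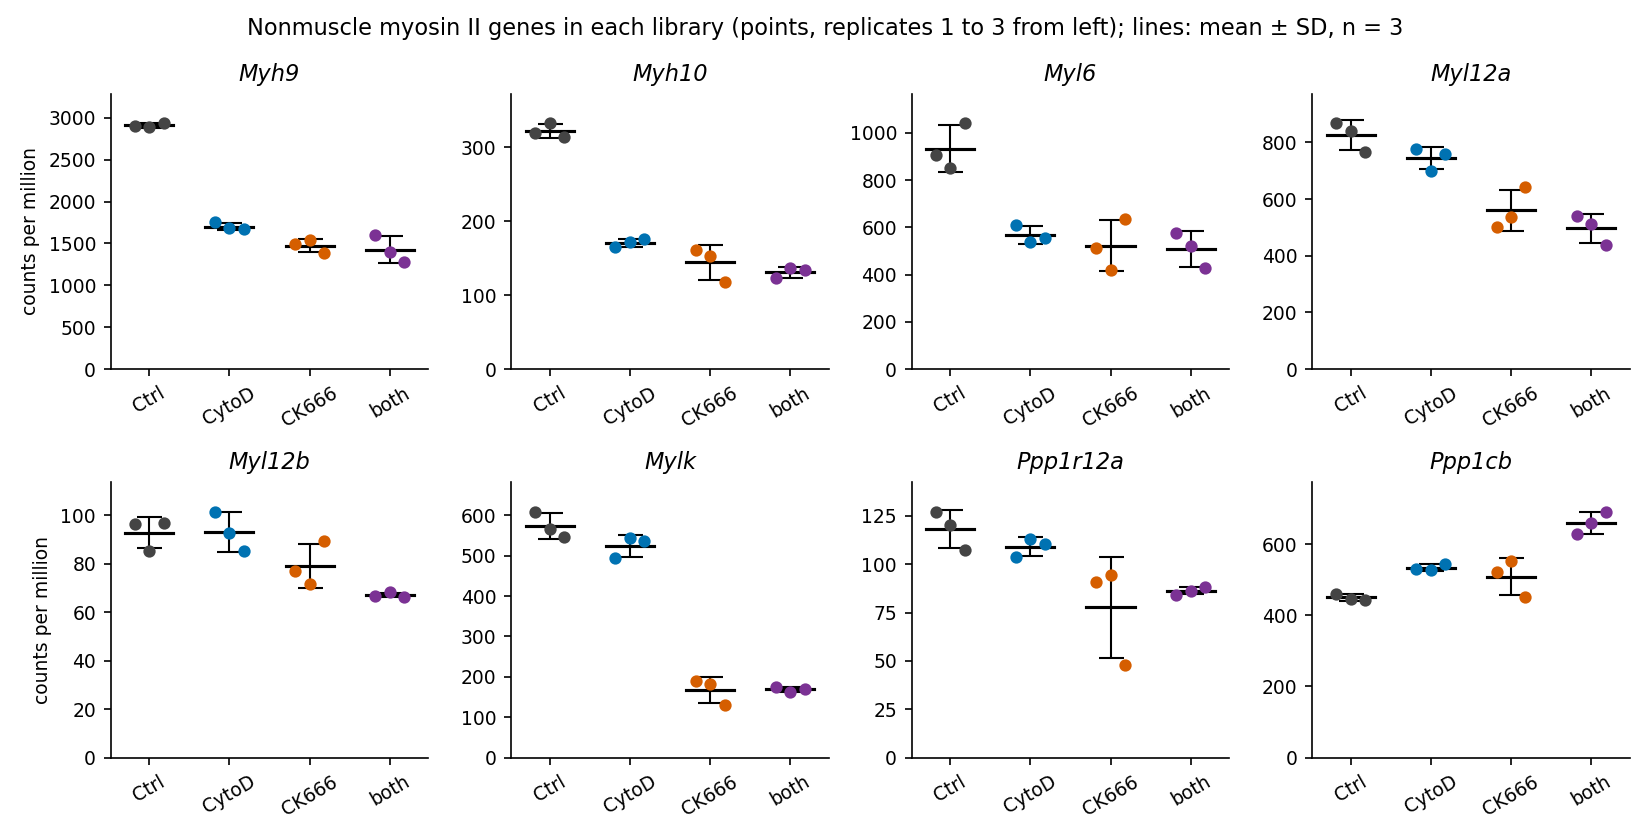
Level of each member in CPM (vertical axes, from 0) in the 12 libraries, by group (horizontal axes); points are libraries, lines the mean and bars the SD over 3 libraries. Myh9 lies at 2890 to 2937 in Ctrl and at 1279 to 1756 in all treated libraries, Mylk lies at 130.0 to 189.5 in the libraries given CK666, and Ppp1cb is highest with both drugs.

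The heavy chains fell with either drug. Myh9 (chr15:77760589-77842115) encodes the heavy chain of myosin IIA, the main nonmuscle myosin of most motile cells. It stood at 2896, 2890 and 2937 CPM in Ctrl, at 1756, 1679 and 1671 in CytoD, at 1496, 1537 and 1385 in CK666, and at 1597, 1393 and 1279 with both drugs. Every treated library lay below every Ctrl library, and CK666 and the combination overlapped. The level was 1.71-fold lower with CytoD (log2 -0.77, 95% interval -0.94 to -0.60, adjusted p = 1.19e-05), 1.98-fold lower with CK666 (log2 -0.98, -1.15 to -0.81, adjusted p = 1.11e-06) and 2.04-fold lower with both (log2 -1.03, -1.20 to -0.86, adjusted p = 3.82e-07). Myh10 (chr11:68691915-68816624) encodes the heavy chain of myosin IIB, which moves more slowly and holds tension longer. Its libraries read 319, 333 and 314 CPM in Ctrl, 165, 172 and 176 in CytoD, 162, 153 and 118 in CK666, and 123, 137 and 134 with both. Ctrl was again apart from all treated libraries, and the lowest value of all was CK666 replicate 3. Myh10 was 1.89-fold lower with CytoD (adjusted p = 2.00e-05), 2.23-fold lower with CK666 (adjusted p = 2.03e-06; 2.11-fold without replicate 3) and 2.46-fold lower with both (adjusted p = 4.24e-07).

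The heavy chains were also set against each other. In deposited RPKM, which corrects for transcript length, Myh10 was 10.5 ± 0.392% of Myh9 in Ctrl, 9.52 ± 0.543% in CytoD, 9.25 ± 1.11% in CK666 and 8.83 ± 1.37% with both drugs (SD, n = 3). The related heavy chain genes were low, with Ctrl means of 0.341 ± 0.211 CPM for Myh14, the heavy chain of myosin IIC, and 0.467 ± 0.0203 CPM for Myh11, the smooth muscle heavy chain. With both drugs 2 of the 3 libraries were below the floor for Myh14 and the groups overlapped, so no fold is given.

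Among the light chains, Myl6 fell with every treatment, Myl12a where CK666 was given and Myl12b with both drugs. Myl6 (chr10:128490861-128493825) encodes the essential light chain, which stiffens the heavy chain's lever arm. It read 908, 852 and 1042 CPM in Ctrl, 610, 538 and 554 in CytoD, 511, 421 and 638 in CK666, and 577, 519.9 and 427 with both. All treated libraries were below all Ctrl libraries, and the 3 treated groups overlapped each other. Myl6 was 1.65-fold lower with CytoD (log2 -0.72, -1.03 to -0.41, adjusted p = 0.00159), 1.79-fold lower with CK666 (adjusted p = 0.000506) and 1.84-fold lower with both (adjusted p = 0.000247). The Myl6 level of CK666 replicate 3 was 137% of the mean of the other CK666 libraries, and without it the CK666 fall was 2.06-fold.

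Myl12a and Myl12b encode near-identical regulatory light chains, the subunit that kinases and phosphatase act on. They are neighbours, at chr17:70993793-71002533 and chr17:70973963-70990516. Their coding sequences were read from GENCODE M21 transcripts (GRCm38) and share 501 of 519 bases, with the longest identical run at 105 bases, and 168 of 172 residues. The start of the coding sequence is shown for both, beside that of Myl9, the smooth muscle type of the same chain, because it holds the threonine and serine codons that are phosphorylated (codons 19 and 20 with the initiator counted, known as Thr18 and Ser19). Capitals mark the bases that are not the same in all 3 genes over coding bases 1 to 90, 5′ to 3′.
Myl12a: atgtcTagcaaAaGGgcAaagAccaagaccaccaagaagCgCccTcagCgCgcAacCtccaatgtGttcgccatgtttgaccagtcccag
Myl12b: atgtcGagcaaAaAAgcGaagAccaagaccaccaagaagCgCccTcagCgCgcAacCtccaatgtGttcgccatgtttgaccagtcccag
Myl9: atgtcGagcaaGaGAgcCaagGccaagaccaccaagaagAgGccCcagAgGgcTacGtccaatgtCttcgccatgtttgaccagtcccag
Within these 90 bases 14 positions vary among the 3 genes. How the authors' counting treated reads that fit both Myl12a and Myl12b is not given in the sources used here, so the split between these genes is uncertain.

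Myl12a fell where CK666 was given. It read 869, 842 and 766 CPM in Ctrl, 775, 699.9 and 758 in CytoD, 500.3, 538 and 642 in CK666, and 539.8, 512 and 438 with both. CytoD overlapped Ctrl, whereas every library with CK666 was below every library without it. The level was 1.11-fold lower with CytoD (log2 -0.15, -0.37 to 0.07, adjusted p = 0.268, not called), 1.47-fold lower with CK666 (adjusted p = 0.000764; 1.64-fold without replicate 3) and 1.66-fold lower with both (adjusted p = 6.40e-05). Myl12b, which is less abundant, read 96.3, 85.4 and 96.7 CPM in Ctrl, 102, 92.7 and 85.1 in CytoD, 77.0, 71.6 and 89.3 in CK666, and 66.9, 68.2 and 66.4 with both. The combination was below every other library, and the other 3 groups overlapped. Myl12b was 1.38-fold lower with both drugs (adjusted p = 0.00107), at 1.00-fold with CytoD (log2 0.01, -0.19 to 0.20, adjusted p = 0.971) and at log2 -0.23 with CK666 (-0.42 to -0.03, adjusted p = 0.0638). The CK666 value was past the threshold without replicate 3 (log2 -0.36, adjusted p = 0.00246) and in 8 of 11 other settings. These 8 include the sum of Myl12a and Myl12b, which gives no value for Myl12b alone. With Myl12a and Myl12b summed into 1 gene, log2 was -0.13 with CytoD (adjusted p = 0.299) and -0.52 with CK666 (adjusted p = 0.000836).

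Myl9 was not a member but shares the regulatory light chain's role, and it moved further than any member in each of the 3 comparisons with Ctrl. It read 396, 383 and 397 CPM in Ctrl, 132, 152 and 153 in CytoD, 83.4, 99.7 and 139 in CK666, and 80.2, 83.0 and 76.5 with both drugs. Ctrl was apart from all treated libraries. Myl9 was 2.69-fold lower with CytoD (adjusted p = 9.94e-06), 3.65-fold lower with CK666 (adjusted p = 7.77e-07; log2 -2.14 without replicate 3 against -1.87 with it) and 4.90-fold lower with both (adjusted p = 7.68e-08).

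The light chain kinase gene fell more than 3-fold where CK666 was given. Mylk (chr16:34784950-35002434) encodes the kinase that phosphorylates the regulatory light chain, and its row sums all transcripts of the gene, including any that give the short protein telokin. Mylk read 609, 565 and 546 CPM in Ctrl, 493, 543 and 537 in CytoD, 189.5, 183 and 130.0 in CK666, and 176, 162 and 169 with both. All 6 libraries with CK666 were at 189.5 CPM or lower and all 6 without it at 493 CPM or higher, and CytoD lay just below Ctrl without overlap. The level was 3.42-fold lower with CK666 (log2 -1.77, -2.03 to -1.52, adjusted p = 2.72e-07; 3.17-fold without replicate 3) and 3.40-fold lower with both (log2 -1.76, -2.02 to -1.51, adjusted p = 1.18e-07). With CytoD alone it was 1.09-fold lower (log2 -0.13, -0.38 to 0.12, adjusted p = 0.406), a difference that passed the threshold without CK666 replicate 3 (adjusted p = 0.0404) and in 3 of 10 other settings (adjusted p = 0.0256 to 0.0476). Adding CK666 to CytoD took Mylk 3.11-fold lower (adjusted p = 1.04e-06), and adding CytoD to CK666 left it at log2 0.01 (-0.24 to 0.26, adjusted p = 0.961). Mylk was also set against Ppp1r12a, the targeting subunit of the phosphatase, in RPKM. It was 212 ± 8.63% of Ppp1r12a in Ctrl, 209 ± 2.33% in CytoD, 98.1 ± 18.3% in CK666 and 85.4 ± 4.75% with both. CK666 replicates 1 and 2 read 91.0% and 84.4%, and replicate 3 read 118.9%. Rows that overlap Mylk on the genome reached at most 0.846 CPM.

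**Figure D2:**
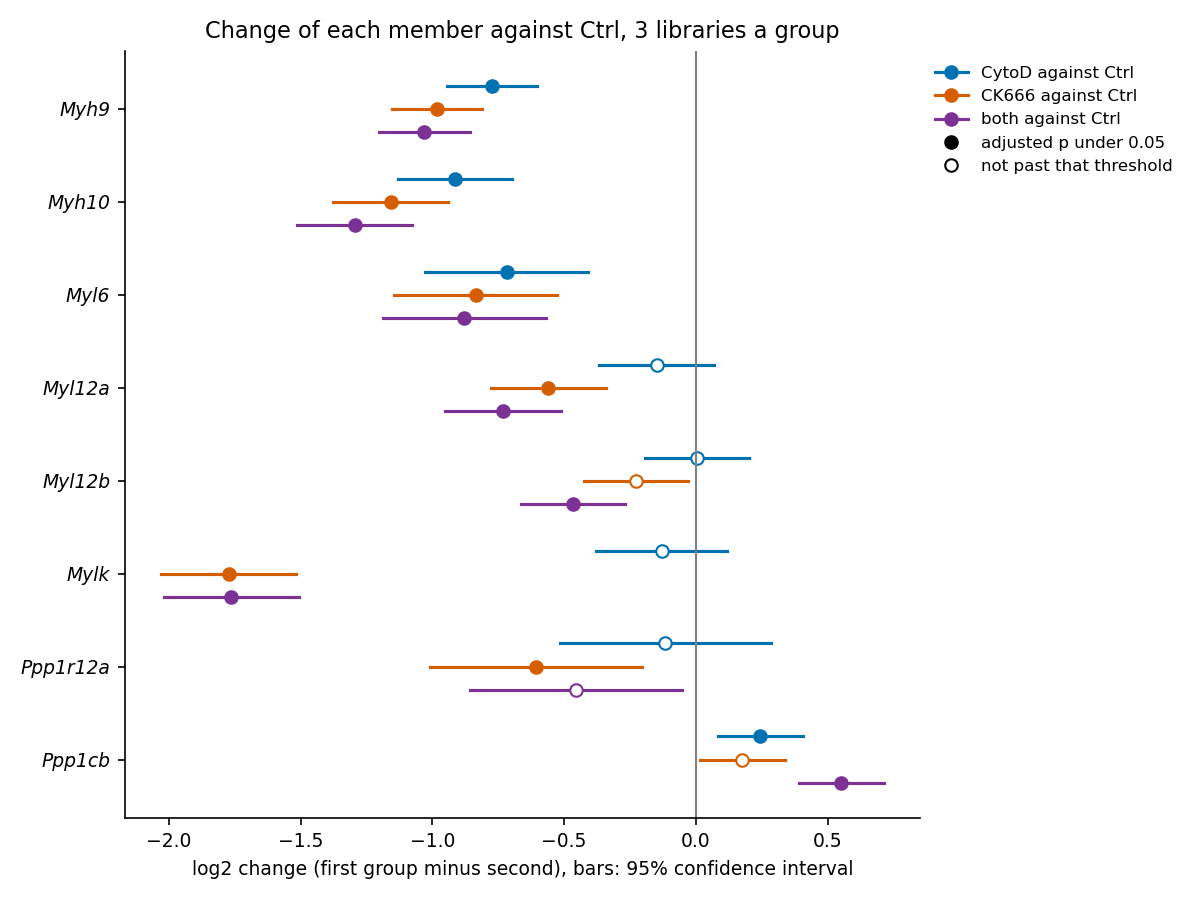
Log2 change against Ctrl (horizontal axis) of each member (rows) with CytoD, CK666 or both, with 95% confidence intervals from the fit over all 12 libraries; filled points have an adjusted p under 0.05. Myh9, Myh10 and Myl6 lie left of 0 with every treatment, Mylk lies near -1.77 with CK666 or both, and Ppp1cb has filled points right of 0.

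Of the phosphatase subunits, Ppp1r12a fell with CK666 and Ppp1cb rose with CytoD and with both drugs. Ppp1r12a (chr10:108162400-108277575), the targeting subunit that carries the phosphatase to myosin, read 127, 120.1 and 108 CPM in Ctrl, 104, 113 and 110.5 in CytoD, 90.8, 94.7 and 47.7 in CK666, and 84.4, 86.4 and 88.1 with both. Every library with CK666 was below every library without it, and CK666 replicate 3 was at 51.4% of the mean of its group's other libraries. The CK666 fall was 1.52-fold (log2 -0.61, -1.01 to -0.20, adjusted p = 0.0194). It was 1.31-fold without replicate 3 (adjusted p = 0.000565), and the call was lost without Ctrl replicate 2 (adjusted p = 0.0526) and with CK666 and Ctrl alone in the fit (adjusted p = 0.0864). With both drugs log2 was -0.46 (adjusted p = 0.0613); it was past the threshold without CK666 replicate 3 (-0.48, adjusted p = 2.02e-05) or replicate 2 (adjusted p = 0.0446) and in 9 of 10 other settings (adjusted p = 0.000103 to 0.0455).

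Ppp1cb (chr5:32458970-32493712) encodes the catalytic subunit that removes the phosphate, a subunit that also works in other phosphatase complexes. Its libraries read 461, 447 and 444 CPM in Ctrl, 529, 528 and 544.5 in CytoD, 522, 554 and 452 in CK666, and 629.6, 661 and 692 with both. The combination was above all other libraries, and CytoD was above Ctrl. Ppp1cb was 1.47-fold higher with both (log2 0.55, 0.39 to 0.71, adjusted p = 5.06e-05) and 1.19-fold higher with CytoD (log2 0.24, 0.08 to 0.40, adjusted p = 0.0200). The CytoD call was lost without Ctrl replicate 2, Ctrl replicate 3, CytoD replicate 2 or CytoD replicate 3 (adjusted p = 0.0502 to 0.0708). With CK666, log2 was 0.18 (0.02 to 0.34, adjusted p = 0.0737), and 0.21 without replicate 3 (adjusted p = 0.00373). It was the member that rose when CytoD was added to CK666 (1.30-fold, adjusted p = 0.00587; adjusted p = 0.106 with those 2 groups alone) and when CK666 was added to CytoD (1.24-fold, adjusted p = 0.00723).

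**Figure D3:**
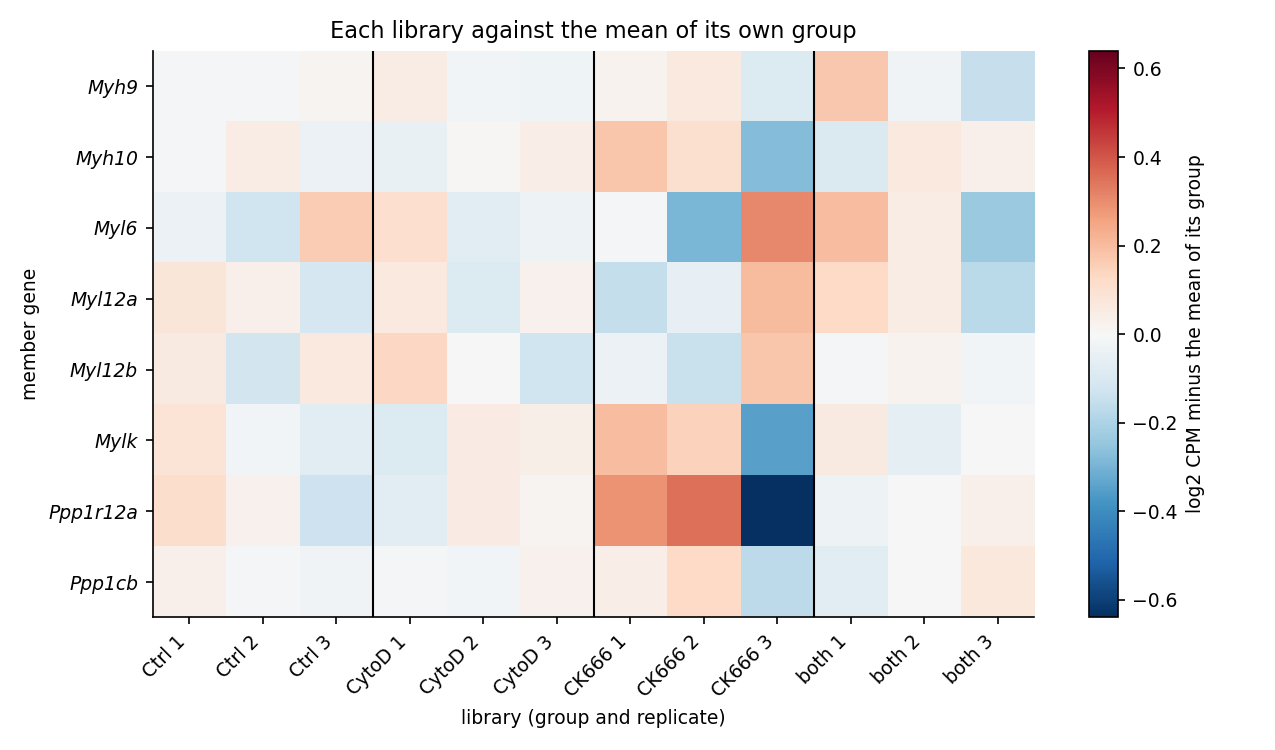
Log2 CPM of each member (rows) in each library (columns) minus the mean of that library's own group, with red above and blue below. CK666 replicate 3 is the darkest blue column for Ppp1r12a and Mylk and is red for Myl6, Myl12a and Myl12b.

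Within CK666 replicate 3 the members split by gene. Its log2 CPM minus the mean of the other CK666 libraries was -0.96 for Ppp1r12a, -0.52 for Mylk, -0.42 for Myh10, -0.25 for Ppp1cb and -0.13 for Myh9. The same difference was 0.46 for Myl6, 0.31 for Myl12a and 0.27 for Myl12b, the members with the shortest deposited lengths (614, 1779 and 939 bases, against 3403 to 7809 for the others). The median absolute difference over all genes tested was 0.275. The part of transcript length in this split was not tested.

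The drugs were also compared with each other. CK666 gave lower levels than CytoD for 3 of 8 members (Myh9, Myl12a and Mylk) where 39.8% of all genes were called. Without CK666 replicate 3 the count was 4 (Myl12a, Myl12b, Mylk and Ppp1r12a), in a fit that called 37.9% of the genes it tested. Ppp1r12a (log2 -0.49, adjusted p = 0.0515) passed the threshold without that library (adjusted p = 0.00901) and in 9 of 10 other settings. Mylk was 3.13-fold lower with CK666 than with CytoD (adjusted p = 7.89e-07) and Myl12a 1.33-fold lower (adjusted p = 0.00653). Myh9 lay at the threshold (log2 -0.21, adjusted p = 0.04995): the call was lost in 7 of 12 fits that each left out 1 library, namely Ctrl 2, CytoD 1, 2 or 3, CK666 1 or 3, or combination 2 (adjusted p = 0.0536 to 0.144). With a correction for transcript length its log2 difference was 0.00 (adjusted p = 0.985).

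Adding CK666 to CytoD changed 6 of 8 members, with 5 lower (both heavy chains, Myl12a, Myl12b and Mylk) and Ppp1cb higher, where 30.1% of all genes were called. Without CK666 replicate 3, Ppp1r12a was lower too (log2 -0.36, adjusted p = 0.000492; -0.34 and 0.192 with all libraries). The count was then 7 of 8, in a fit that called 42.2% of the genes it tested. Myl12a was lower (log2 -0.58, adjusted p = 0.000862), Myl12b 1.39-fold lower (adjusted p = 0.00193) and Myh10 1.30-fold lower (adjusted p = 0.0116). Myh9 was 1.20-fold lower (adjusted p = 0.0251), a call lost without CytoD 1, 2 or 3 or combination 2 or 3 (adjusted p = 0.0541 to 0.106) and with a transcript length correction (adjusted p = 0.0940). Adding CytoD to CK666 changed 1 of 8 members, Ppp1cb, where 11.6% of all genes were called. In that comparison the 95% intervals of log2 were -0.22 to 0.12 for Myh9, -0.35 to 0.08 for Myh10 and -0.35 to 0.26 for Myl6. Myh10 passed the threshold there without CK666 replicate 3 (log2 -0.25, adjusted p = 0.0120), and Ppp1r12a turned from 0.15 to -0.09.

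For the heavy chains and Myl6, the 2 drugs together gave less than the sum of their single falls. The interaction, taken as the log2 change with CytoD among cells given CK666 less the one among cells not given it, was past the threshold for 3 of 8 members where 14.3% of all genes were called. For Myh9 the single changes summed to -1.75 and the combined change was -1.03, an interaction of 0.72 (0.48 to 0.96, adjusted p = 0.00139). Myh10 had a sum of -2.07 and a combined change of -1.30, an interaction of 0.78 (0.47 to 1.08, adjusted p = 0.00355). For Myl6 the values were -1.55, -0.88 and 0.68 (0.24 to 1.11, adjusted p = 0.0408), but that call was lost in 10 of the 12 fits that left out 1 library (adjusted p = 0.0551 to 0.112) and kept without CK666 replicate 3 (adjusted p = 0.00242) or combination replicate 3. Mylk had an interaction of 0.14 (-0.21 to 0.49, adjusted p = 0.614), Myl12a of -0.02 (-0.33 to 0.28, adjusted p = 0.930) and Ppp1cb of 0.13 (-0.10 to 0.36, adjusted p = 0.443). Myl12b went the other way, with a sum of -0.22, a combined change of -0.47 and an interaction of -0.24 (-0.52 to 0.04, adjusted p = 0.234, not called), and Ppp1r12a had 0.27 (-0.30 to 0.84, adjusted p = 0.539). The median was 0.20 over the members and -0.02 over all genes tested.

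**Figure D4:**
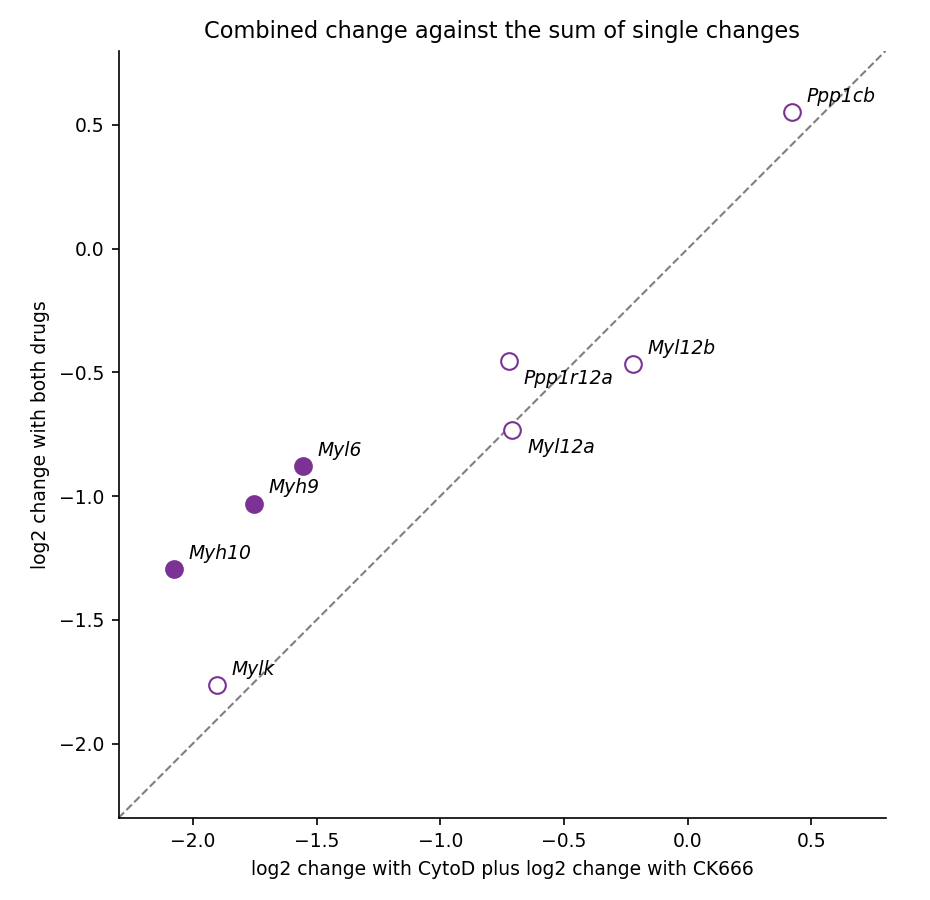
Log2 change against Ctrl with both drugs (vertical axis) against the sum of the log2 changes with each drug alone (horizontal axis) for the 8 members; the dashed line marks equality and filled points have an interaction past an adjusted p of 0.05. Myh9, Myh10 and Myl6 lie above the line with filled points, Ppp1r12a above it and Myl12b below it with open points, and Mylk, Myl12a and Ppp1cb closer to it.

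The promoters of the genes that fell with either drug are shown beside that of Mylk, which fell where CK666 was given, so that their sequences can be compared. RefSeq promoters (GRCm38.p6, 300 bases around the annotated start, most of them before it) were found for all 8 members. Each was searched on both strands for the CArG box, which serum response factor binds, and for GGAATG, a motif that TEAD factors bind. The motifs can share a GG, but no member's promoter held both. Capitals mark a match.
Myh9 (chr15:77842126-77842425, minus strand): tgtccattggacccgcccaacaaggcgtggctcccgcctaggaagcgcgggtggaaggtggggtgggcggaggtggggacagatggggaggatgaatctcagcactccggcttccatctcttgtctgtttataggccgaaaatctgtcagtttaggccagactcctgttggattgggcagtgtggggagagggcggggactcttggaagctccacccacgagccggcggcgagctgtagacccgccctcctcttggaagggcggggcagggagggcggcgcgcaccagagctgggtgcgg
Myh10 (chr11:68691665-68691964, plus strand): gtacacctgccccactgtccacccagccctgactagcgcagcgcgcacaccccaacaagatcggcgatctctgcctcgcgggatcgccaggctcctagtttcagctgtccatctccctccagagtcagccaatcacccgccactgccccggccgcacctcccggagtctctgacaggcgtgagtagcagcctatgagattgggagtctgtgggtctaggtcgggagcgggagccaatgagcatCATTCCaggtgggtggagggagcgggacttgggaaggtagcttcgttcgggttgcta
Myl6, first listed start (chr10:128493837-128494136, minus strand): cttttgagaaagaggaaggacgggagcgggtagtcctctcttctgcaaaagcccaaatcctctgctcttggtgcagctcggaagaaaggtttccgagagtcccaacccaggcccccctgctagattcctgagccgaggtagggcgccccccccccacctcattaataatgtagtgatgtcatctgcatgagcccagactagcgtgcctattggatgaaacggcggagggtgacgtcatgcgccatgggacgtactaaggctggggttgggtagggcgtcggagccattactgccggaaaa
Myl6, second listed start (chr10:128492960-128493259, minus strand): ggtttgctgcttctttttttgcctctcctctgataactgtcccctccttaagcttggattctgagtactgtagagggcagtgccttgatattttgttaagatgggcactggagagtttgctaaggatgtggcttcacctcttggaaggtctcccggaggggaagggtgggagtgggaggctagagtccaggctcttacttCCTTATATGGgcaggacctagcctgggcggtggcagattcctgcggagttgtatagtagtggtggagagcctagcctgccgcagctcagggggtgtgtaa
Mylk (chr16:34784700-34784999, plus strand): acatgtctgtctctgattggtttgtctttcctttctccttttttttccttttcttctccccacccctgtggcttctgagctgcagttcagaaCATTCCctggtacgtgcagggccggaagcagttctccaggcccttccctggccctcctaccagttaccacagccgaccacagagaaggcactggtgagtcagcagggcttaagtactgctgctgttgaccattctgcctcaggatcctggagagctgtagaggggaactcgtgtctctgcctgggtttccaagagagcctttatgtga
The CArG box was in 1.63% of the 32851 promoters in the table and, among the members, only in that of the second Myl6 start, at positions -50 to -41 from it. GGAATG was in 14.7% of promoters and in those of Myh10, Myl12a, Mylk and Ppp1cb. The windows of Myh9 and of the first Myl6 start, which lies at the 5′ end of the deposited gene, held neither motif. The Mylk window lies at the start of the deposited row (34784950). The GENCODE M21 gene starts upstream of it, at 34745210, and no window at that start was searched. Which start gave the counted reads was not tested.

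Genes with the profile most like a member's were sought among 11529 genes with a mean of at least 1 CPM, by the root mean square difference of centred log2 CPM over the 12 libraries. Closest to Myh9 were Myadm (0.0664), Ywhah (0.0745) and Trib2 (0.0753), beside a median of 0.479 over all genes compared. Those closest to Myh10 were Ret (0.106), Trib2 (0.120) and AI506816 (0.126), with Myh9 itself at rank 12. Mylk was closest to Rspo2 (0.126), Aldh1a2 (0.165) and Cdkl1 (0.174), beside a median of 0.902. Aldh1a2, a retinoic acid synthesis enzyme, averaged 778 CPM in Ctrl, 723 in CytoD, 187 in CK666 and 230.3 with both. Rspo2, a secreted Wnt enhancer, averaged 545, 595, 187 and 193 CPM in the same order.

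Around the motor, 46 other genes in 5 lists were tested. With CytoD 4 rose and 24 fell against Ctrl, with CK666 5 rose and 22 fell, and with both 4 rose and 24 fell. Of all genes tested, 19.1% rose and 18.9% fell with CytoD, 22.5% rose and 18.7% fell with CK666, and 24.4% rose and 21.6% fell with both. Without CK666 replicate 3 the counts were 5 and 29, 4 and 26, and 4 and 28. More genes were called in that fit: of 13730 tested, 3339 rose and 3585 fell with CytoD. With CK666 2664 rose and 3152 fell there, and with both 3857 rose and 3878 fell. In the list of myosin filament partners, 11 of 14 fell and 1 rose with CytoD, 9 fell and 0 rose with CK666, and 11 fell and 0 rose with both (11, 10 and 11 fell without CK666 replicate 3). The tropomyosin Tpm1, which coats actin filaments and gates myosin's access, went from 951 ± 3.21 CPM in Ctrl to 391 ± 3.11 in CytoD, 474 ± 13.1 in CK666 and 355 ± 39.7 with both (SD, n = 3; adjusted p = 2.41e-07, 5.37e-07 and 2.13e-08). Tpm4 changed by -0.58, -1.20 and -1.18 on the log2 scale, and Actn1, an actin crosslinker, by -0.94, -0.88 and -1.06. Limch1, an activator of myosin II, was the gene of that list that rose with CytoD (log2 1.17, adjusted p = 0.0445).

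Among 12 other kinases that can act on the light chain, 3 rose in each comparison with Ctrl, while 4, 5 and 3 fell with CytoD, CK666 and both (6, 5 and 5 without CK666 replicate 3). Dapk1, a death-associated kinase, rose from 30.4 ± 2.02 CPM in Ctrl to 88.4 ± 6.82, 149.5 ± 23.5 and 182 ± 30.4 (SD, n = 3; adjusted p = 3.78e-06, 1.10e-07 and 2.44e-08). Dapk2, of the same list, was low, at 1.31 ± 0.428 CPM in Ctrl. It fell with CK666 (log2 -2.02) and with both (log2 -3.15), and was not called with CytoD (log2 -0.37). Of 9 other phosphatase subunits and inhibitors, 3 fell and 0 rose with CytoD, 2 fell and 1 rose with CK666, and 3 fell and 0 rose with both, which is near or below the share of all genes called. Without CK666 replicate 3 the falls were 4, 4 and 5, and 1 rose with CytoD and 1 with CK666. Cit, the citron kinase of the cytokinetic furrow, fell by 1.43, 0.71 and 2.19 on the log2 scale, and the furrow proteins Kif23 (-1.40, -0.70 and -2.27) and Anln fell too, Anln from 82.7 ± 14.3 CPM in Ctrl to 33.7 ± 3.32, 43.3 ± 9.32 and 16.8 ± 1.94 (SD, n = 3). Of the 6 contractile ring genes, 4 fell in each comparison, and Sept9, a septin named here after its values were seen, rose with CK666 (log2 0.29, adjusted p = 0.0163). Without CK666 replicate 3 the falls were 6, 5 and 4, and Sept9 stood at 0.17 with CK666 (adjusted p = 0.0784).

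**Figure D5:**
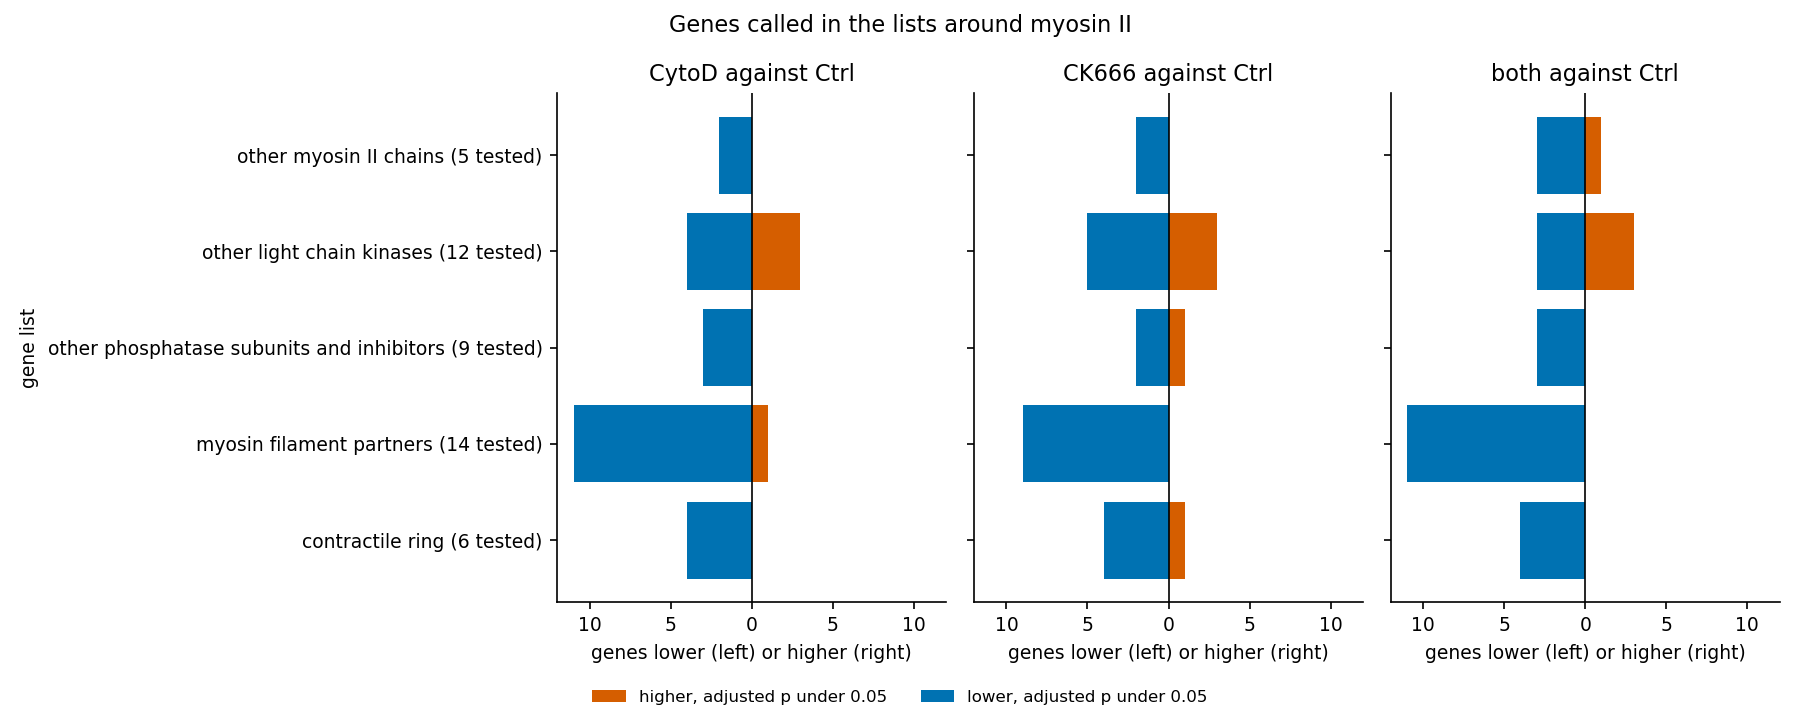
Number of genes called lower (left of 0) or higher (right of 0) than Ctrl at an adjusted p under 0.05 in the 5 lists of genes around myosin II (rows), for CytoD, CK666 and both. In the list of myosin filament partners 11, 9 and 11 of 14 genes fell.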

How the data were processed

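RNA sequencing of 12 libraries (4 groups of 3) was deposited as 1 table of counts per gene, RPKM per gene and a column headed CodingLength, per the file headers. That column was taken here as the transcript length. The authors deposited raw counts, which are all even, and the RPKM values, which were used here only to compare levels between genes. CASAVA 1.9, TopHat 12.0.6, HTSeq and the human build hg19 are named in the submitters' processing notes, without roles; the deposited gene symbols and coordinates are those of mouse, and all 8 described members lay on the same chromosome as, and at least 99.06% inside, their GENCODE M21 (GRCm38) genes.

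Counts were kept where edgeR's filterByExpr (minimum count 10) passed them (13534 of 23358 rows), scaled by TMM and fitted with edgeR 4.0.16 in R 4.3.3 (quasi-likelihood test, 2-sided, 4 group means, all 12 libraries, 8 residual degrees of freedom). P-values were adjusted by Benjamini-Hochberg over all genes tested, and a gene was called at an adjusted p under 0.05. Levels are TMM-scaled CPM; log2 CPM used a prior count of 2. Alternatives were DESeq2 1.42.0, other scalings and filters, 2-group fits, a replicate block, a transcript length correction and leaving out each library. The fit was tested on simulated counts. Named genes were the described members, Myl9, Myh11 and Myh14, the 3 genes most like Myh9, Myh10 and Mylk, and part of a further set. That set held up to 3 called genes of largest change per list and comparison with Ctrl, and not all of them are named. Actn1 was named after its values were seen. Of the 10 members, 2 are not reported here, nor are 5 gene lists. The members and lists were chosen with earlier results of these data known.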

Additional observations from a re-analysis of the deposited data

Results flagged for a closer look

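The effect of CytoD on 3 members was not the same with and without CK666, by a test of the difference itself over all 12 libraries (edgeR's quasi-likelihood test, adjusted over all genes tested). The difference in log2 change was 0.72 for Myh9, 0.78 for Myh10 and 0.68 for Myl6. With CytoD alone these genes fell by 0.77, 0.92 and 0.72 on the log2 scale, and with CytoD added to CK666 they stood at -0.05, -0.14 and -0.04. Myh10 was called lower with CytoD added to CK666 in the fit without CK666 replicate 3 (log2 -0.25, adjusted p = 0.0120). It was also called there with a transcript length correction (log2 -0.31, adjusted p = 0.00210). The Myh9 and Myh10 interaction calls were kept in all 12 fits that left out 1 library, and the Myl6 interaction call was lost in 10 of them. Of all genes tested, 14.3% were called for the interaction.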

How the results depend on the processing

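Of 1238 member values under other settings or without 1 library, 1114 kept their direction and side of the threshold, 67 gained a call, 32 lost one and 25 changed sign. With 2 groups alone in the fit, 0 members were called for both against CK666, and the genes called were 459 for both against CK666 (1570 with all 12 libraries) and 3558 for CK666 against CytoD (5380). Members called for CK666 against CytoD came to 6 with RLE size factors, with a CPM filter, with halved counts (an alternative chosen after seeing the data, as were the list counts without CK666 replicate 3) and with DESeq2, and to 5 without Rn45s, with a length correction and with that correction and the replicate block (3 with none of these). With a length correction, 2 members were called for both against CK666, and log2 was 0.136 for Myl6 and -0.156 for Mylk there, 0.00289 for Myh9 in CK666 against CytoD and 0.0482 for the Myl12a interaction. For Myl12b with CytoD log2 was -0.00400 with no filter, -0.00462 without Rn45s and -0.133 with Myl12a and Myl12b summed. The cause of these changes was not tested.

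Leaving out 1 library gave 745 (without combination replicate 3) to 2563 (without CK666 replicate 2) genes and 1 to 2 members for both against CK666, 2 to 4 members for CK666 against CytoD, and 1094 (without CytoD replicate 2) to 3396 (without CK666 replicate 3) genes for the interaction (1935 with all). Log2 ranges that crossed 0 were -0.0638 to 0.0646 for Myl12b with CytoD, -0.0985 to 0.109 for the Myl12a interaction and -0.315 to 0.0201 for Myl6 in CK666 against CytoD. For both against CK666 they were -0.140 to 0.0223 for Myh9, -0.179 to 0.138 for Myl6, -0.129 to 0.108 for Mylk and -0.0899 to 0.319 for Ppp1r12a.

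The replicate numbers share no stated source: same-numbered libraries correlated at -0.0789 to 0.256, with 4 of 18 pairs over 0.1, and 8 of 12 libraries correlated best with their own number. A replicate block gave 4, 6, 7, 6, 1, 4 and 3 members called for CytoD, CK666 and both against Ctrl, both against CytoD, both against CK666, CK666 against CytoD and the interaction, and 5212, 5652, 6299, 4166, 1726, 5477 and 2078 genes. The block with the length correction gave 2413 genes and 2 members for both against CK666, 3019 genes for the interaction, and log2 of 0.133 for Myl6, -0.156 for Mylk, 0.00243 for Myh9 and 0.0426 for Myl12a in the comparisons named above. With 3 libraries a group, counts set no limit for these members, which all lay far above the floor.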
